A study of Mus musculus with 8 samples.

Results

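Interferon-stimulated genes are described here through the open chromatin around them in resting natural killer (NK) cells of the mouse. The set is a list of 35 named genes, no peak value enters the rule that links peaks to them, and all 35 symbols were found in a RefSeq gene table of build GRCm38.p6. Peaks were given to the protein-coding gene with the nearest gene end, at either its start or its finish, up to 50 kb away. Mx1 and Mx2 are transcribed pseudogenes in that table and could take no peak, which left 33 of 21883 protein-coding genes. Of these, 27 had a linked peak, and each of the 27 had one in all 8 libraries. Peaks that overlapped by at least 1 bp and came from at least 2 libraries were merged into consensus regions, of which 71 of 50044 belonged to the set.

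The assay was ATAC-seq, in which a transposase cuts and tags accessible DNA, on splenic NK cells of 8 mice at steady state, 200000 cells per mouse, enriched with DX5 beads and sorted as CD49b+ CD3e-. WT denotes 4 mice with wild-type HSF1, replicates 4, 5, 6 and 7. MUT denotes 4 mice with the HSF1 allele S303/7A, in which alanine takes the place of serines 303 and 307, replicates 26, 27, 28 and 29. Each mouse gave 1 library and 1 peak list. The labels name no strain, age, sex or litter, and any difference other than the allele between these blocks of mice cannot be told apart from it.

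Type I interferons bind a receptor made of IFNAR1 and IFNAR2, and the kinases JAK1 and TYK2 then signal to the nucleus. A complex that contains IRF9 binds interferon-stimulated response elements (ISREs) in the promoters of many of these genes, while interferon-gamma acts through gamma-activated sites. The products block virus entry, RNA translation and assembly, sense foreign nucleic acid, or tune the response itself, and NK cells are among the cells that interferon activates. HSF1, the factor altered in the MUT mice, drives heat shock genes through heat shock elements made of repeated GAA units.

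The ISRE was the motif these promoters held most often among the 3 searched, and it is printed for members with and without a peak over it. The RefSeq promoter table for the same build covers 250 bases before to 50 after a start site and had an entry for 24 of the 35 members. The ISRE was searched on both strands as GAAA, NN and GAAA in a row, where N is any base. It occurred in 13 of these 24 members (54.2%) and in 689 of all 17491 genes with an entry (3.94%). Sequences run 5′ to 3′ on the gene's own strand, capitals mark ISRE letters, and in Bst2 the first capitals mark a heat shock element. The first 4 start sites lay under a called peak in all 8 libraries, that of Oas3 in 1 library, those of Oas1a and Ifitm2 in none, and the start nearest the Ifi203 site in 8.
Isg15, chr4:156200819-156200938, minus strand: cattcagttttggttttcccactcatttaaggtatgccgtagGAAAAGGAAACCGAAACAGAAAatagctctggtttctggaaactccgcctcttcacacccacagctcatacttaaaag
Ifit1, chr19:34640769-34640888, plus strand: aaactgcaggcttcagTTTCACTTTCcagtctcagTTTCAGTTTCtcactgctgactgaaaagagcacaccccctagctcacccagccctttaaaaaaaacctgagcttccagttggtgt
Rsad2, chr12:26456453-26456582, minus strand: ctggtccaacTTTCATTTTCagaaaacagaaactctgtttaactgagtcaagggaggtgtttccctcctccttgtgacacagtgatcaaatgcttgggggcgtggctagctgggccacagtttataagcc
Bst2, chr8:71537473-71537652, minus strand: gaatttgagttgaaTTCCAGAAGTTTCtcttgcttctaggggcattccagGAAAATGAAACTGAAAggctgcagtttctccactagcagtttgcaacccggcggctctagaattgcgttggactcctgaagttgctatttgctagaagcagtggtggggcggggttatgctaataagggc
Oas3, chr5:120777685-120777779, minus strand: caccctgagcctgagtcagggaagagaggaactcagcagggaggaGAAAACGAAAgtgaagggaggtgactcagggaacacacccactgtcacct
Oas1a, chr5:120907526-120907645, minus strand: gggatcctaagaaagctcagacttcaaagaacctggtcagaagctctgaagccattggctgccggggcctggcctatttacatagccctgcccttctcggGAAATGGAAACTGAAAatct
Ifitm2, chr7:140955988-140956017, minus strand: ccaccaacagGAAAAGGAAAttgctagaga
Ifi203, chr1:173942508-173942537, minus strand: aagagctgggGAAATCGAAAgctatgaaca

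Isg15, which encodes the ubiquitin-like modifier of the response, has 3 overlapping matches that begin 78, 72 and 66 bases before its start. Ifit1, whose product binds foreign RNA ends, has 2 matches, 104 and 85 bases before the start, both read on the other strand. In Rsad2, encoding viperin, the match lay 120 bases before the start, and in Bst2, encoding tetherin, overlapping matches lay 130 and 124 bases before it. The other members with the letters were Ifit3, Ddx58, Ifih1, Ifitm3 and Eif2ak2. A peak lay over an ISRE match in all 8 libraries for 9 of the 13 members, namely Ifit1, Ifit3, Isg15, Rsad2, Ddx58, Ifih1, Bst2, Ifi203 and Eif2ak2. It lay over the match of Oas3 in 1 library and over those of Oas1a, Ifitm2 and Ifitm3 in none, so the same letters occurred in promoters with and without a called peak. The gamma-activated site letters TTCNNNGAA occurred in 7 of 24 members (29.2%) and in 8.92% of all genes with an entry. The heat shock element was searched as TTC, NN, GAA, NN and TTC in a row, or the same on the other strand, and occurred in 1 of 24 members (4.17%) and in 104 of all genes with an entry (0.595%). That member was Bst2, where the match began 166 bases before the start, under a peak in all 8 libraries. These matches are descriptions of letters, not of binding.

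Most of these genes had an open gene end in resting NK cells before any challenge. Of the 33 protein-coding members, 23 (69.7%) had a linked peak within 1 kb of a gene end in all 8 libraries, against 9638 of all 21883 genes (44.0%). A further 3 members, Oas3, Ifitm1 and Ifitm3, had one in some libraries, and 7 had none. At the start site itself, 17 of the 24 members with an entry (70.8%) lay under a peak in all 8 libraries, against 8432 of 17491 genes (48.2%). Any gene with several entries was counted by the start covered in the most libraries. Other starts of Isg20 were covered in 0 and 3 libraries, and the other Ifi203 start in 5. The 71 member regions comprised 34 at gene ends and 37 distal ones, of which 16 lay inside a gene and 21 outside. In all 8 libraries were 28 of the 34 gene-end regions (82.4%, against 84.7% of all linked gene-end regions) and 21 of the 37 distal regions (56.8%, against 63.6%).

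**Figure D1:**
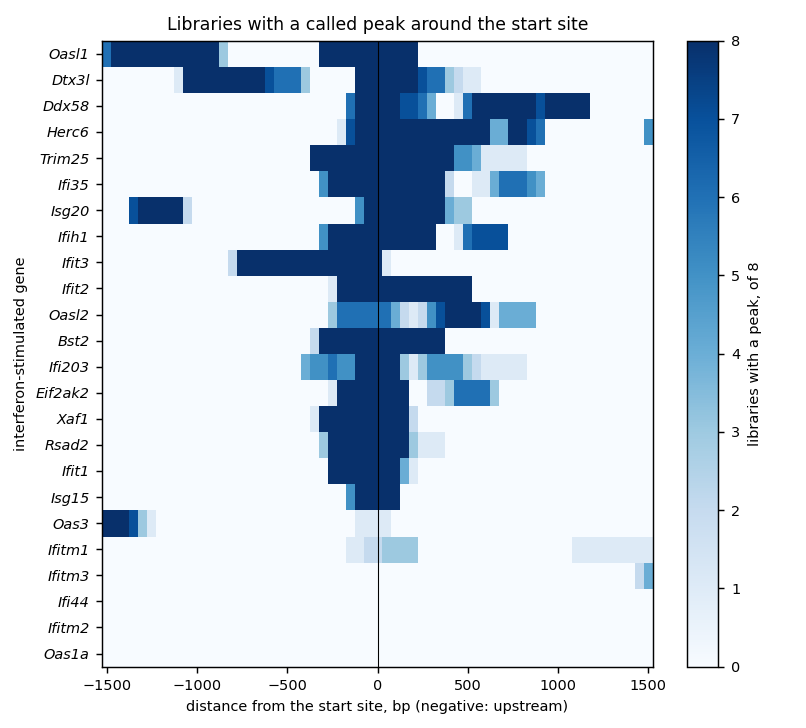
Number of libraries, of 8, with a called peak in 50-bp steps from 1500 bp upstream to 1500 bp downstream of the start site, for the 24 members with a start site in the promoter table. Dark cells at 0 show the 17 start sites under a peak in all 8 libraries, and the bottom rows show Ifi44, Ifitm2 and Oas1a without any peak in the window.

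The strength of a peak is given as the percentile of its score within its own list, where 100 is the strongest peak. The score was assigned by the authors, so percentiles describe peaks inside a library and show no change between libraries. Gene-end regions of the set had a median percentile of 64.4, averaged over libraries, against 68.5 for all linked gene-end regions. Distal member regions had 32.9, against 36.7 for all linked distal regions. Among regions called in all 8 libraries, the medians were 69.0 against 74.4 at gene ends and 60.6 against 54.7 for distal regions. Within single lists, the distal median of member peaks was 46.0 to 47.4 in WT, against 42.7 to 43.4 for all linked distal peaks. In MUT it was 41.3 to 45.9, against 43.5 to 44.1. The distal order therefore depended on what was counted. Above percentile 90 were 5 of the 71 member regions (7.04%), against 9.21% of all linked regions. At gene ends these were 3 of 34 (8.82%, against 17.6%) and among distal regions 2 of 37 (5.41%, against 5.29%). The share of members with a gene-end peak was above that of all genes. Their median gene-end percentile was below that of all linked gene-end regions, and neither difference was tested.

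Among the members with a gene-end peak in all 8 libraries, the strongest such peaks belonged to Ifi27 and Xaf1. Ifi27, which encodes a small mitochondrial and nuclear-envelope protein, had a mean percentile of 94.9, with a range of 90.2 to 97.5 over the 8 libraries. Xaf1, encoding a proapoptotic partner of XIAP, had 91.3 (88.3 to 94.2). Trim25, the ubiquitin ligase that activates RIG-I, had 87.7 (81.4 to 91.5), and Usp18, the protease that removes ISG15 and restrains the interferon receptor, had 86.7 (81.6 to 92.1). Eif2ak2, encoding the double-stranded RNA kinase PKR, had 84.6 (76.5 to 90.2), and Zbp1, a sensor of Z-form nucleic acid, had 83.2 (79.6 to 86.8). The ranges of neighbouring genes in this order overlapped.

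At the other end of the order, Isg15 stood apart from its partners in the ISG15 pathway. Its gene-end peak was at percentile 10.3, 15.9, 11.2 and 18.7 in the WT libraries and at 15.8, 14.4, 13.8 and 25.9 in the MUT libraries, a mean of 15.7. The peak covered the promoter with 3 overlapping ISRE matches in every library, and it was 265 ± 33.0 bp long in the WT and 293 ± 32.5 bp in the MUT libraries (SD, n = 4 each). Every Isg15 percentile was below that of the strongest gene-end peak of Usp18, of Trim25 and of Herc6 in any library. The mean for Herc6, whose product is the ISG15 ligase in mice, was 69.2. The other members with weak gene-end peaks in all 8 libraries were Parp14 (mean percentile 36.9, range 31.5 to 46.5), Ifi203 (43.9, 35.5 to 53.3) and Isg20, an exonuclease gene (44.4, 33.2 to 52.0).

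**Figure D2:**
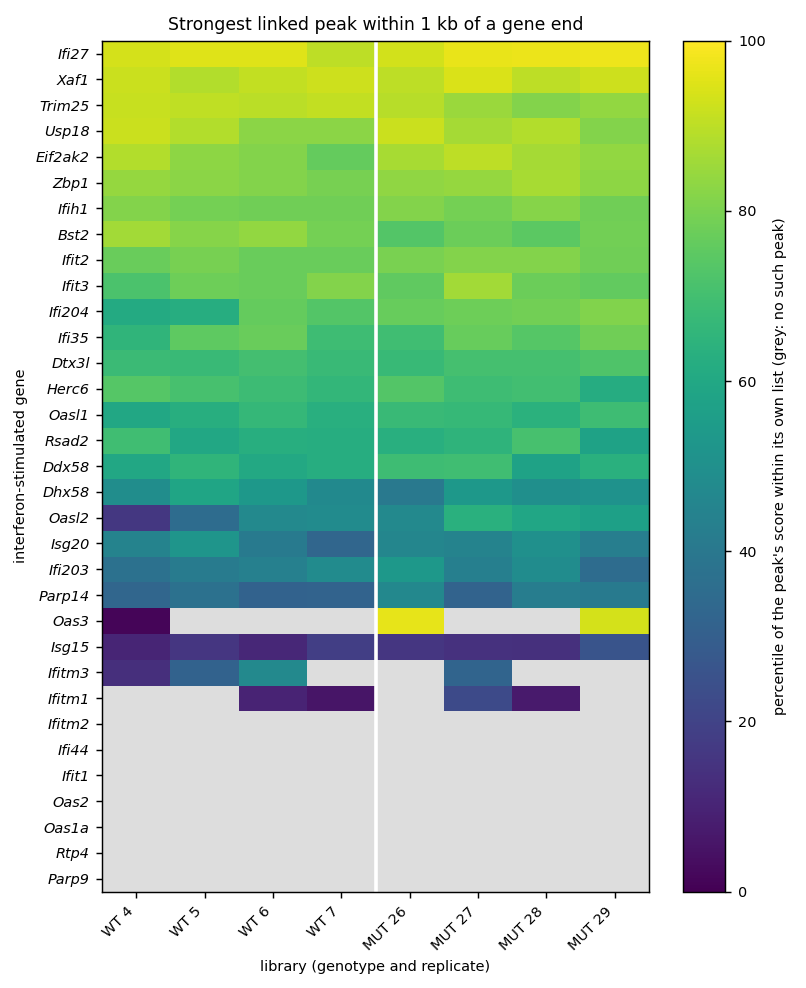
Percentile (colour, 0 to 100) of the strongest linked peak within 1 kb of a gene end, for the 33 protein-coding members in the 8 libraries, with WT left of the white line. Grey marks a library without such a peak. Ifi27 and Xaf1 are at the top with means of 94.9 and 91.3, and Isg15 is near the bottom at 15.7. Oas3 has values only where the near edge of a peak fell within 1 kb of its end.

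Of the 6 protein-coding members with no linked peak, Ifit1 and Parp9 had peaks that went to a neighbour. The peak over the Ifit1 start (chr19:34640593-34641094) was called in all 8 libraries at a mean percentile of 93.9 (90.7 to 98.2). Its midpoint was 46 bp from the Ifit1 end and 16 bp from the end of Ifit1bl2, to which it was linked. This region was 434 ± 41.8 bp long in WT and 408 ± 31.5 bp in MUT. Parp9, encoding an ADP-ribosyltransferase, meets Dtx3l, its ubiquitin ligase partner, at a shared end. A peak there was called in all 8 libraries (mean percentile 64.9) and linked to Dtx3l, with 541 ± 115 bp in WT and 502 ± 99.1 bp in MUT.

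The remaining 4 had no called peak near them. No peak lay within 1 kb of an end of Oas1a or Oas2, which encode 2′-5′-oligoadenylate synthetases, of Ifi44, or of Ifitm2, which encodes an entry inhibitor. The nearest peak was 4176 bp from an Oas2 end, 7262 bp from an Ifitm2 end, 12803 bp from an Ifi44 end and 64786 bp from an Oas1a end. Rtp4, a receptor transport protein gene, also had no gene-end peak, with the nearest at 3509 bp, although a distal region inside it was called in all 8 libraries at percentile 60.6. Rtp4 spans 94004 bp in the gene table and has no promoter entry, so whether that region lies at a start site was not checked. An uncalled peak does not show that chromatin is closed, since the depth of these lists is unknown.

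The Mx genes are named for dynamin-like GTPases that block virus replication, but they are transcribed pseudogenes in the gene table. Both were open at an end although the rule gives them no peak. The region at the Mx1 end was called in all 8 libraries at a mean percentile of 67.9. It was 412 ± 15.0 bp long in WT and 434 ± 34.7 bp in MUT, and its nearest protein-coding gene end was that of Fam3b, 7974 bp away. The region at the Mx2 end was also called in all 8 libraries, at 50.3, with 1287 ± 337 bp in WT and 1303 ± 241 bp in MUT. The ranges of WT and MUT libraries overlapped at both.

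Away from gene ends, the strongest regions lay inside the RNA sensor gene Ddx58 and inside Herc6. The Ddx58 region (chr4:40229706-40230229), 9596 bp from the nearest end of the gene that encodes RIG-I, had a mean percentile of 99.5, the highest of the 71 regions. The Herc6 region (chr6:57641743-57642154), 22982 bp from a gene end, had 98.6. Both were called in all 8 libraries, and both were stronger within their lists than the same gene's own gene-end peaks, at 63.5 for Ddx58 and 69.2 for Herc6. Next came regions outside Ifitm1 (chr7:140981663-140982193, 88.8), Ifi204 (chr1:173809304-173809726, 86.0) and Usp18 (chr6:121238149-121238714, 77.8). The Ifi204 region was the farthest link, 42234 bp from the gene, and no consensus region nearest to a member lay beyond 50 kb. Whether a linked region regulates its gene was not tested.

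Oas3 depended on the 1 kb bound. Its strongest region (chr5:120754062-120754663, percentile 96.3, 8 libraries) began 964 bp from the 3′ end of the gene, just inside the bound, while a Usp18 region at percentile 69.3 lay just outside it at 1059 bp. In single libraries the Oas3 peak counted as gene-end in MUT replicates 26 and 29 alone, and a weak 200-bp peak (percentile 1.37) counted in WT replicate 4. At the Oas3 start a peak was called in 1 library. Oasl2, by contrast, had a peak over its start in 2 WT and 4 MUT libraries.

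No member gene differed between the genotypes past the threshold. The accessible length of a gene, the summed length of its linked peaks, was compared between MUT and WT with limma over 14249 genes, and differences are given as log2 of scaled bp plus 200, MUT minus WT. Of the 27 members tested, 0 had a Benjamini-Hochberg adjusted p under 0.05 (background 0.674% of genes), and the lowest was 0.124. At an unadjusted p under 0.05 there were 5 of 27 (18.5%, background 11.2%). Of these, 4 had more length in MUT (14.8%, background 5.75%) and 1 had less (3.70%, background 5.46%). The median difference of the 27 was −0.0097, against −0.019 for all genes tested, and 12 (44.4%) were above 0, against 42.1% of all genes. Scaled lengths of the 4 WT and 4 MUT libraries did not overlap for Ifih1, Eif2ak2 and Ifi203, 3 of 27 (11.1%, background 6.77%).

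**Figure D3:**
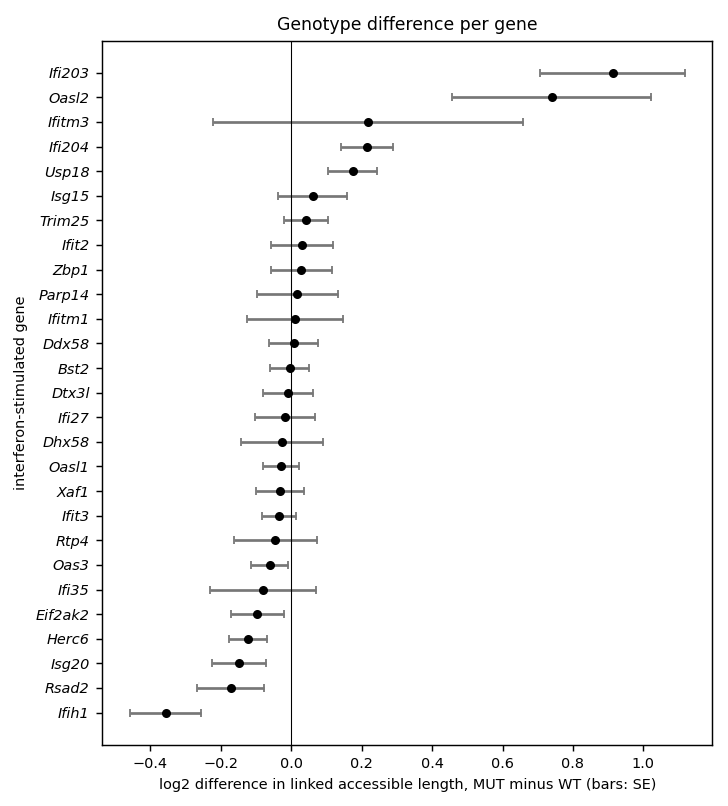
Difference in linked accessible length for the 27 members tested, MUT minus WT, on the log2(bp + 200) scale. Points are limma estimates and bars are their standard errors. Most members lie near 0, Ifi203 (0.91) and Oasl2 (0.74) lie farthest to the right and Ifih1 (−0.36) farthest to the left, and none passed the adjusted threshold.

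Ifi203 and Ifi204, members of the p200 family of interferon-inducible DNA-binding proteins on chromosome 1, had a higher mean accessible length in MUT, and neither passed the threshold. Ifi203 had 527, 262, 645 and 675 bp in the WT libraries and 1057, 1516, 1027 and 1094 bp in the MUT libraries. All 4 MUT libraries were above all 4 WT libraries, and the means were 527 ± 188 and 1174 ± 230 bp (SD, n = 4 each). The log2 difference was 0.91 (SE 0.20, limma adjusted p = 0.124). Within it, the gene-end region (chr1:173941660-173942926) measured 248, 262, 645 and 475 bp in WT and 830, 1258, 789 and 843 bp in MUT. This region holds the ISRE letters shown above. The other Ifi203 start in the promoter table lay under a peak in 1 WT and 4 MUT libraries. Ifi204 measured 824, 968, 979 and 1040 bp in WT, against 1161, 1283, 1106 and 1121 bp in MUT, without overlap in unscaled bp, although the scaled lengths overlapped. Its log2 difference was 0.21 (SE 0.074, limma adjusted p = 0.315). The p200 genes are similar to each other, as are the Ifit, Ifitm, Oas and Oasl genes, and the handling of reads that map to several copies is not given in the sources used here.

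Oasl2 and Usp18 also had a higher mean in MUT, with overlap between the groups. Oasl2, encoding an oligoadenylate synthetase-like protein, measured 241, 921, 625 and 264 bp in WT, against 750, 1065, 1005 and 902 bp in MUT. The spread came from WT, where replicates 4 and 7 were low and replicate 5 lay within the MUT range. The log2 difference was 0.74 (SE 0.28, limma adjusted p = 0.375). Usp18 measured 2027, 2325, 2145 and 2118 bp in WT, against 2247, 2998, 2384 and 2513 bp in MUT, with 0.17 (SE 0.070, limma adjusted p = 0.394). WT replicate 5 was above MUT replicate 26. Ifitm3, a virus entry inhibitor, was also among the 5 largest differences above 0, with 429, 1057, 761 and 291 bp in WT and 603, 1601, 1074 and 211 bp in MUT. Its difference of 0.22 was smaller than its SE of 0.44 (limma adjusted p = 0.887).

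Ifih1, encoding the RNA sensor MDA5, had the largest difference toward less length in MUT. It measured 2196, 1629, 1597 and 1612 bp in WT, against 1468, 1423, 1444 and 1114 bp in MUT. The groups did not overlap, and WT replicate 4 was far above the other WT libraries. The log2 difference was −0.36 (SE 0.10, limma adjusted p = 0.235), and it was −0.093 in the upper 50% of each list and −0.21 with 10 kb linking. At its start, Ifih1 had a peak of percentile 79.7 in every library. In the distal peaks alone the difference was −0.62 (SE 0.14, limma adjusted p = 0.104), while at gene ends it was −0.045 (limma adjusted p = 0.997). A weak region inside the gene (chr2:62643398-62643653) was called in 4 WT libraries and 1 MUT library (Fisher's exact test, p = 0.143).

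The other differences below 0 were smaller, and none passed. Rsad2 measured 827, 1148, 1124 and 1099 bp in WT, against 873, 1090, 903 and 861 bp in MUT, with −0.17 (SE 0.095, limma adjusted p = 0.564). The groups overlapped through WT replicate 4 alone, since the other WT libraries were above every MUT library, and without it the difference was −0.27 (limma adjusted p = 0.165). Isg20 had 903 ± 76.7 bp in WT, against 821 ± 123 bp in MUT, with −0.15 (limma adjusted p = 0.536). Herc6 had −0.12 (limma adjusted p = 0.445). Eif2ak2 measured 437, 391, 388 and 377 bp in WT, against 377, 370, 368 and 362 bp in MUT, with −0.10 (limma adjusted p = 0.683), and the lowest WT library equalled the highest MUT library in unscaled bp. Bst2, the member with the heat shock element letters, had 702 ± 18.2 bp in WT, against 720 ± 34.3 bp in MUT, with −0.0041 (SE 0.056, limma adjusted p = 0.989). Ifit3, which works in a complex with IFIT1, had 830 ± 9.20 bp in WT, against 828 ± 26.8 bp in MUT.

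**Figure D4:**
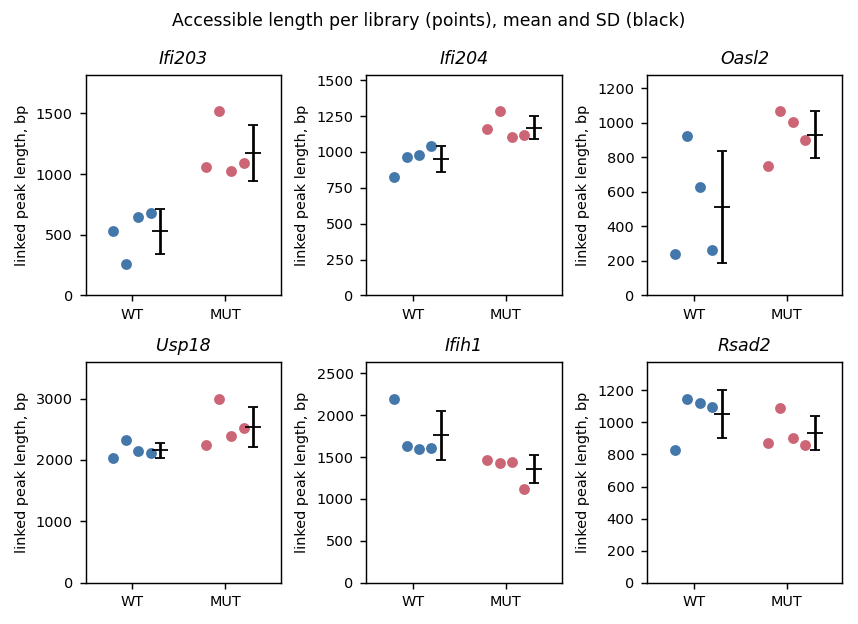
Summed length in bp of linked peaks in each library (points, WT left, MUT right) with the mean and SD in black, for 6 members. Lengths are unscaled. Ifi203 and Ifi204 do not overlap between genotypes and are higher in MUT, Ifih1 does not overlap and is lower in MUT, and Oasl2, Usp18 and Rsad2 overlap.

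Gene-end and distal peaks were also tested apart. At gene ends, 0 of 26 members passed (limma, 11032 genes, background 0.263%), with a lowest adjusted p of 0.348. At an unadjusted p under 0.05 there were 3 of 26 (11.5%, background 6.76%), namely Ifi203, Oasl2 and Ifi204. All 3 had more length in MUT (background 3.34%) and 0 had less (background 3.43%). Scaled lengths did not overlap for 2 of 26, Ifi203 and Ifi204 (7.69%, background 4.57%). The median was 0.0045 against −0.0034 for all genes. In the distal fit, 0 of 17 members passed (limma, 9778 genes, background 1.27%), with a lowest adjusted p of 0.104. Unadjusted, 4 of 17 did (23.5%, background 13.1%), with more length in MUT for 1, Usp18 (background 7.05%), and less for 3, Ifih1, Rsad2 and Oas3 (background 6.06%). Scaled distal lengths did not overlap for 1 of 17, Ifih1 (5.88%, background 7.67%). The distal Rsad2 difference was −0.36 (adjusted p = 0.258), and that of Oas3 was −0.26 (adjusted p = 0.252), where the 1 kb bound moved its strongest peak to the gene-end class in MUT replicates 26 and 29. Without WT replicate 4, 2 of 17 members passed in the distal fit (background 0.673%). These were Ifih1 (−0.47) and Rsad2 (−0.49), each at a limma adjusted p of 0.0489.

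Of the 71 member regions, 2 (2.82%, background 0.583% of 50044) had a peak in all 4 MUT and no WT library, and 0 (background 0.178%) had the reverse. The first lay inside Usp18 (chr6:121255679-121256080), 9773 bp from the nearest gene end, and measured 397, 267, 264 and 222 bp in MUT replicates 26 to 29, at a mean percentile of 24.3. The second lay 6229 bp outside Ifi203 (chr1:173949096-173949367) and measured 227, 258, 238 and 251 bp, at 29.6. Each had an exact Fisher p of 0.0286, the smallest that 4 against 4 allows, and an adjusted p of 1. None of the 50044 regions passed after adjustment. With 0.0286 as the smallest p and so many regions, this outcome was all but fixed in advance and says nothing about change. Both were weak peaks, and neither was among the stronger 50% of any list. The nearest cases in the other direction were the Ifih1 region above and a region inside Rsad2 (chr12:26453010-26453263) called in 3 WT and 0 MUT libraries (Fisher's exact test, p = 0.143). Of the 22 member regions not called in all 8 libraries, 7 (31.8%) were called in more MUT than WT libraries. As many, 7 (31.8%), were called in more WT than MUT libraries. The shares over all consensus regions not called in all 8 were 47.7% and 32.0%.

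**Figure D5:**
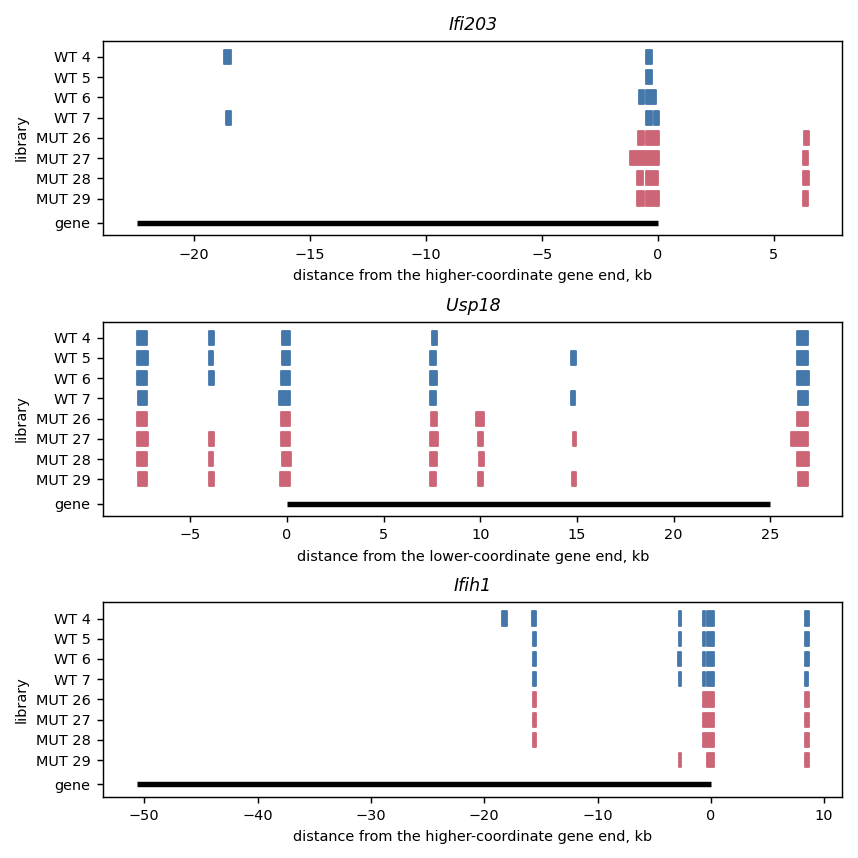
Peaks called in each library (WT blue, MUT red) along Ifi203, Usp18 and Ifih1, against distance in kb from one gene end, with the gene in black. Peaks in all 4 MUT libraries and no WT library lie about 6 kb outside Ifi203 and 10 kb inside Usp18, and a peak inside Ifih1 appears in 4 WT libraries and 1 MUT library.

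The rest of the pathway, 36 other genes, was mostly open. A gene-end peak in all 8 libraries was found for 31 of 36 (86.1%), among them Ifnar1, Ifnar2, Jak1, Tyk2, Stat2 and Irf9, and Tlr7 alone had none in any library. Of the 36, 0 passed in limma (background 0.674%) and 2 (5.56%, background 11.2%) had an unadjusted p under 0.05. These were Jak1, with more length in MUT, and Ifnar2, with less. Jak1 measured 6093, 6333, 5757 and 7006 bp in WT, against 7838, 8994, 8265 and 7807 bp in MUT, without overlap, a difference of 0.34 (SE 0.063, adjusted p = 0.0659). Ifnar2 had −0.15 (adjusted p = 0.279). The largest other differences above 0 were those of the kinase gene Tbk1, 0.40 (adjusted p = 0.622), and Irf3, 0.27 (adjusted p = 0.838). The largest below 0 were those of the GTPase gene Gbp2, −0.25 (adjusted p = 0.470), Samd9l, −0.20 (adjusted p = 0.663), and the RNA-editing enzyme gene Adar, −0.17 (adjusted p = 0.632). The median over the 36 was −0.012, and 17 (47.2%) were above 0, against 42.1% of all genes.

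The lists held 42695 to 49627 peaks, the most in MUT replicate 27, and 62 to 71 of them were linked to members (0.139% to 0.147%). MUT replicate 27 also had the most member peaks. All 8 NK cell markers, Itga2 of the sorting gate among them, had a gene-end peak in every library, and 1 of them, the receptor gene Klrb1c, had less linked length in MUT (log2 difference −0.27, limma adjusted p = 0.0314). Of 6 T cell markers, Cd3e, Cd3d and Cd3g had one in every library, and Cd4, Cd8a and Cd8b1 had none in any. None of 4 neutrophil markers had a gene-end peak in any library. Of 6 dendritic cell markers 1 (Flt3) had one, and of 6 macrophage and monocyte markers 2 (Cd14 and Itgam). Siglech, Csf1r, Adgre1, Lyz2 and Ly6c2 had no gene-end peak. The summed linked length of the dendritic cell list was 2192 to 2506 bp in WT and 2350 to 3222 bp in MUT, and that of the macrophage and monocyte list was 6882 to 7796 bp and 7193 to 8667 bp. The basophil and mast cell list had 2886 to 3691 bp in WT against 3360 to 4025 bp in MUT, and the erythroid cell and platelet list 1588 to 2160 bp against 1673 to 2186 bp. These ranges overlapped, and the part of other cells in the values of Ifi203 and Ifi204 was not tested.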

How the data were processed

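The deposited files are 8 peak lists, 1 per mouse, and column 5 gives each peak a positive score, a value the authors assigned and did not name. The submitters' processing notes list build mm10 and, among tools, DiffBind 3.0.12, DESeq2, Bowtie2 2.3.4.1 and Trimmomatic. Peak caller, threshold, read filters and transposase shift: not given in the sources used here. Without read counts, depth is unknown and no count model was run.

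Peaks were linked by midpoint to the nearest protein-coding gene end within 50 kb, and a peak within 1 kb of that end was a gene-end peak. Starts, strands and promoter windows came from RefSeq tables (GRCm38.p6). Linked lengths were summed per gene, where at least 2 libraries had a peak, and scaled to equal library totals. They were tested with limma 3.58.1 (R 4.3.3, trend) on log2(bp + 200), with Benjamini-Hochberg adjustment over all genes and a threshold of 0.05. That scale understates changes of short lengths. Printed lengths are unscaled. Regions were tested with Fisher's exact test, two-sided (scipy 1.17.1, Python 3.11.15). The code was checked on drawn data with known answers. Planted log2 changes of 0.5 and 1 were recovered in 57% and 81% of 100 genes each, and 11 genes without a planted change were called. Changes of the sizes seen here can therefore be missed.

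Some items of the marker and pathway lists are not reported here. The members and lists were chosen with earlier results of these data known. Named members are those without a linked peak or without a gene-end peak in all libraries, the 6 strongest and 4 weakest at gene ends, and the 5 largest differences in each direction. Members with a group-only region, the 5 strongest distal regions called in all 8 libraries, and Usp18, Isg15, Ifit1, Mx1, Oas2, Bst2 and Eif2ak2 were also named. Of the pathway genes, those past a threshold and the 3 largest changes in each direction were named. Other named genes (Mx2, Ifit3 and those given without values) were added after values were seen. Alternatives were the upper 50% of each list, equal numbers of peaks (42695), leaving out each library, 10 kb linking, a 2 kb gene end, a pseudocount of 1000 bp, no filter, no scaling, the gene of the merged region and a 50% overlap.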

Additional observations from a re-analysis of the deposited data

Results flagged for a closer look

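In 8 of the 54 groups of 4 libraries tested, 1 library's linked length stood apart from the other 3 by Dixon's criterion, which chance meets in about 1 in 20 groups. In MUT replicate 29 this was Ddx58 at 1599 bp (others 1869 to 1919), Ifih1 at 1114 bp (1423 to 1468) and Ifit2, an RNA-binding antiviral gene, at 1022 bp (1364 to 1417). In MUT replicate 27 it was Ifi203 at 1516 bp (1027 to 1094) and Rtp4 at 796 bp (517 to 549). In WT replicate 4 it was Ifih1 at 2196 bp (1597 to 1629) and Rsad2 at 827 bp (1099 to 1148). In WT replicate 6 it was Rtp4 at 769 bp (540 to 552).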

How the results depend on the processing

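No paired analysis was possible because the replicate numbers of the labels (4 to 7 and 26 to 29) are shared by no groups. The number of members past the threshold stayed at 0 under every alternative for all linked peaks and for gene ends. For distal peaks it was 0 to 2 when 1 library was left out. It was 2 without WT replicate 4 (background 0.673%), and the cause was not tested. The MUT-only member regions fell from 2 to 0 in the upper 50% of each list and stayed at 2 otherwise. Leaving out 1 library can hardly lower this count, because the rule is then met by fewer libraries. The background rose from 0.583% to as much as 1.05% in those settings. Linking at 10 kb could not lower it either, since both regions lie within that distance. The WT-only regions numbered 0 to 1 when 1 library was left out. There was 1 without WT replicate 4 (Rsad2, background 0.239%) and 1 without MUT replicate 29 (Ifih1, background 0.297%). Members with a gene-end peak in all 8 libraries numbered 17 in the upper 50%, 23 with equal numbers of peaks and 24 with a 2 kb gene end. Of 296 log2 values of 20 named members, 30 changed sign and 0 passed the threshold. The sign of 10 members was the same in every setting that gave them a value. Ifi203, Isg15, Ifitm3 and Parp14 had no value in the upper 50% of each list, where too few libraries kept a linked peak. Sign changes were, in the upper 50% of each list, Bst2 0.0098, Rsad2 0.052, Trim25 −0.014 and Usp18 −0.037. With equal numbers of peaks they were Bst2 0.016, Ifi27 0.0014, Ifitm1 −0.054, Parp14 −0.035 and Trim25 −0.0067. With 10 kb linking they were Bst2 0.010 and Ifitm3 −0.54, and without scaling Bst2 0.027 and Ifi27 0.012. Leaving out 1 library gave ranges of −0.026 to 0.023 for Bst2, −0.084 to 0.014 for Ifi27, −0.061 to 0.12 for Ifitm1, −0.068 to 0.59 for Ifitm3, −0.060 to 0.12 for Parp14, −0.13 to 0.050 for Rtp4, −0.014 to 0.071 for Trim25 and −0.053 to 0.073 for Zbp1. Ifi203 lay between 0.70 and 1.03 and Ifih1 between −0.40 and −0.26 in the same fits, but Ifih1 was −0.093 in the upper 50% of each list and −0.21 with 10 kb linking. With a pseudocount of 1000 bp, Ifi203 was 0.49 and Oasl2 0.36, and in the upper 50% Oasl2 was 1.44. The cause of the sign changes was not tested.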

Other observations

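The p200 gene cluster that holds Ifi203 and Ifi204 was looked at as a whole after their values were seen. It spans 12 genes on chromosome 1 (173468485 to 174031755), and 9 of them had a linked peak. All 9 had a log2 difference above 0, against 42.1% of all genes tested, which is a description of neighbouring, similar genes and not 9 independent results. The 9 include Ifi203 and Ifi204, whose values prompted the look. The largest was that of Mndal, 1.55 (SE 0.53, limma adjusted p = 0.311), with 0, 0, 524 and 726 bp in WT and 1103, 1186, 1269 and 628 bp in MUT. MUT replicate 29 lay below WT replicate 7. Ifi213 had 0, 0, 407 and 373 bp in WT and 457, 572, 526 and 441 bp in MUT, with 0.99 (limma adjusted p = 0.393). Ifi208 had 0, 476, 542 and 880 bp in WT and 768, 881, 629 and 740 bp in MUT, with 0.70 (limma adjusted p = 0.625). Ifi206 had 0.62 (limma adjusted p = 0.341) and Ifi209 had 0.60 (limma adjusted p = 0.492). Ifi214 had 0.35 (limma adjusted p = 0.703), and Ifi211 between Mndal and Ifi203 had 0.05. WT replicates 4 and 5 had no Mndal or Ifi213 peak, and WT replicate 4 had none at Ifi208 or Ifi209. None of the 9 genes passed. Of the 17 consensus regions of the cluster, 5 were called in all 8 libraries. Of the other 12, 11 (91.7%) were called in more MUT than WT libraries and 1 (8.33%) in more WT than MUT libraries, against 47.7% and 32.0% of all consensus regions not called in all 8. In 4 regions no WT library had a peak, and 1 of these was called in all 4 MUT libraries. That 1 is the Ifi203 region given above, so a region known beforehand is counted in the 11. Neighbouring regions are not independent results either.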
